A study of Mus musculus with 6 samples.

Results

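The 42 genes described here encode the machinery that licenses, opens and copies DNA, together with cyclin E and E2F genes that mark the passage from G1 into S phase. They were taken as a named list, and all 42 were found, by RefSeq accession, among the 20018 named genes of the array. Of these, 38 were measured, meaning that the probe's signal stood well above background on every array of the knockout, of the wild type, or of both. Of those 38, 37 were well above background on all 6 arrays, and Pola2 was not above background on wild-type replicate 2. Cdc45, Orc1, Cdc6 and Ccne2 were too dim to be tested.

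The cells were lung fibroblasts cultured from mice, with 3 cultures from Mmp19 knockout animals and 3 from wild-type animals. Mmp19 is a matrix metalloproteinase. All animals, knockout and wild type alike, had received 0.08 units of bleomycin into the trachea, which causes lung injury and then scarring, and all are labelled as females of 11 weeks. The fibroblasts were taken at day 21 and kept in culture for 72 hours, and none of the arrays came from untreated animals. The series text speaks of independent experiments but does not say whether a culture came from 1 animal or a pool, or how the knockout allele was made, so the p-values measure the spread between these cultures.

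Each array was a one-colour hybridisation, and a value below is the log2 processed signal minus that array's 75th percentile, called the scaled signal. It compares arrays within a gene, not genes with each other. The 75th percentile itself was 138 to 328 intensity units on the knockout arrays and 190 to 290 on the wild-type arrays, and 3 arrays per genotype limit the precision. The Mmp19 probe stayed below background in all 3 knockout cultures and was detected in all 3 wild-type ones, at least 5.33-fold lower (limma adjusted p = 0.016), although the sources used here do not place it relative to the deletion. Xist RNA was above background on all 3 knockout and on 0 wild-type arrays. The Y-linked Eif2s3y was nevertheless above background on all 6 arrays and differed by -3.21 without passing (limma adjusted p = 0.112). Xist in the knockout cultures goes with the label of female animals. Its lack of signal in the wild-type cultures and the Y-linked signal go against that label. These sex-linked signals run along with genotype, and their part in the results was not tested. Wild-type replicate 2 stood apart among the wild-type arrays: its correlations with wild-type replicates 1 and 3 were 0.939 and 0.960, and that between those 2 was 0.984. Among the knockout arrays, replicate 1 correlated with replicates 2 and 3 at 0.9579 and 0.9803, and those 2 with each other at 0.9855. Of 9 fibroblast markers 8 were above background on all 6 arrays; the exception was Lum on wild-type replicate 2. Their summed level (each scaled signal taken out of log2) was 1346 to 1444 in knockout and 870 to 1135 in wild-type cultures, and Col1a1 and Col1a2 rose, though neither passed in the fit blocked on slide (limma adjusted p = 0.0845 and 0.0944). The summed level of 9 mesothelial markers was 38.8 to 110 in knockout and 3.32 to 12.5 in wild-type cultures, 5 of them rose, and Calb2 was below background everywhere. Of 8 smooth muscle and pericyte markers 2 rose, Myh11 and Des, with a sum of 366 to 410 in knockout and 72.9 to 487 in wild-type cultures. Of the markers that rose, Upk3b, Lrrn4, Bnc1, Myh11 and Des were not above background on every wild-type array. They entered the test only through the knockout arrays, where they are high. The mesothelial marker Lrrn4 did not pass in the fit blocked on slide (limma adjusted p = 0.0528). No epithelial, endothelial, macrophage or lymphocyte marker passed; Epcam, Nkx2-1, Tek, Emcn, Mrc1 and Ms4a1 were below background on all 6 arrays, while others such as Sftpc, Pecam1 and Csf1r were above it on all 6. The part of these markers in the results below was not tested.

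A cell that is about to divide first loads the Mcm helicase onto origins, which needs the origin recognition complex, Cdc6 and Cdt1. At the start of S phase Cdc45 and the GINS complex switch that helicase on, and polymerases, the sliding clamp Pcna and its Rfc loader copy the opened strands. Most of these genes are transcribed in late G1 by E2F factors, which cyclin E and its kinase release from the retinoblastoma proteins, and resting fibroblasts express them weakly. Because these arrays read bulk cultures, fewer cycling cells and less RNA per cycling cell cannot be told apart.

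RefSeq promoter windows (build GRCm38.p6, from 250 bases before a gene's start to 50 bases after it) were matched for 34 of the 42 genes, in 40 windows; Mcm4, Gins1, Gins2, Gins4, Rfc2, Prim2, Pole and Ccne2 were not matched. The letters TTTCCCGC, TTTGGCGC, TTTCGCGC or TTTGCCGC, searched on both strands and with overlapping matches counted, occurred in 14 of 40 windows (35%), against 2.26% of all 32851 windows. The CCAAT letters occurred in 62.5% of the members' windows and 37.4% of all, and TTTGAA, the core of the element typical of mitosis genes, in 15% and 17.9%. In 22 windows of 21 mitosis genes the E2F letters occurred in 4.55% and TTTGAA in 72.7%. A match describes the letters and not a bound site. The 5 windows shown were taken from those that hold a match. They are those of helicase subunits and of Cdt1, whose signals carry the pattern over cultures, and of E2f2, a member that passed the test. Capitals mark the E2F letters on either strand, and the sequences run 5′ to 3′ on the gene's own strand.
Mcm3: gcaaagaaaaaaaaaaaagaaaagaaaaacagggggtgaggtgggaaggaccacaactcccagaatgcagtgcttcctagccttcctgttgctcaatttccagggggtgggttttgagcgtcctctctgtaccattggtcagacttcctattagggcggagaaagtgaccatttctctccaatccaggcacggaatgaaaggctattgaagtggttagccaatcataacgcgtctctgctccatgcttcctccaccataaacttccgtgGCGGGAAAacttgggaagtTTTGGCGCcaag
Mcm5: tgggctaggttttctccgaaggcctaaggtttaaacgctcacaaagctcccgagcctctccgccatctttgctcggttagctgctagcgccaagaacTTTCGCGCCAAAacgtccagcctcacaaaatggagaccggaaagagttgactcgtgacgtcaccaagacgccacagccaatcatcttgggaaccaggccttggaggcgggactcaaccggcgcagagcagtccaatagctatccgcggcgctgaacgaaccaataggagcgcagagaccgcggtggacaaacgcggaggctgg
Mcm6: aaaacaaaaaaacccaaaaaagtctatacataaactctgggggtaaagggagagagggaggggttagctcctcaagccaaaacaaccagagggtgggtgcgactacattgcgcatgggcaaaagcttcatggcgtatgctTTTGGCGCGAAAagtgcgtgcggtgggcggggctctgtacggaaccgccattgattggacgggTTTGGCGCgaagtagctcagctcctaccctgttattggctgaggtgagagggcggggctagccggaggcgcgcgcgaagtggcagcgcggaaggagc
Cdt1: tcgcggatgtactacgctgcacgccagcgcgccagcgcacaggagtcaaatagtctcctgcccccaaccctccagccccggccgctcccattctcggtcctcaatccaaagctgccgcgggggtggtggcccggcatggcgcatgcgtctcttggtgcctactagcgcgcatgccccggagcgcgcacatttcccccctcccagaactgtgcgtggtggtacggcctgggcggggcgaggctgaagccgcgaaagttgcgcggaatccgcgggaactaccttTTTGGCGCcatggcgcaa
E2f2: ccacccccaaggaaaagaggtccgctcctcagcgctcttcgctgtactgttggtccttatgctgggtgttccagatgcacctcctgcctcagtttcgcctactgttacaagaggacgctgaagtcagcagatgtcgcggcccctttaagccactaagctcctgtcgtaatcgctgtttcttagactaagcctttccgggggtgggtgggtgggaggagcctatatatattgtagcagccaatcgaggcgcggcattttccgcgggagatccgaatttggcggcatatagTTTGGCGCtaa
The windows lie at chr1:20820263-20820562 on the minus strand for Mcm3, chr8:75109259-75109558 on the plus strand for Mcm5, chr1:128359656-128359955 on the minus strand for Mcm6, chr8:122567765-122568064 on the plus strand for Cdt1 and chr4:136172024-136172323 on the plus strand for E2f2. Mcm6 held 3 matches, Mcm3 and Mcm5 held 2 each, and Cdt1 and E2f2 held 1 each. No match was found in the window of Rpa1 or in the other window of E2f2. None was found for Mcm2, Pcna, Rfc5 and Prim1 either, whose signals carry the pattern over cultures too. Whether the letters go with that pattern was not tested.

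In knockout cells 1 of the 38 measured genes rose and 1 fell, and the other 36 did not pass (limma over all 24214 probes, Benjamini-Hochberg adjusted p under 0.05). Prim2, the large subunit of DNA primase, rose, and E2f2, an activating E2F factor, fell. Among all 12470 genes tested 3.3% were called higher and 1.49% lower (4.8% in either direction, and 4.64% of all probes), so 2 calls among 38 genes lie near the background. The median difference, knockout minus wild type, was -0.47 over the 38 genes and 0.08 over all genes tested, and 32 of the 38 differences were negative. In the median over the 38 genes, wild-type replicates 1 and 3 lay above the 6-array mean and wild-type replicate 2 furthest below it. The knockout cultures lay nearer that mean, as the heat map of the 38 genes by array shows.

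**Figure D1:**
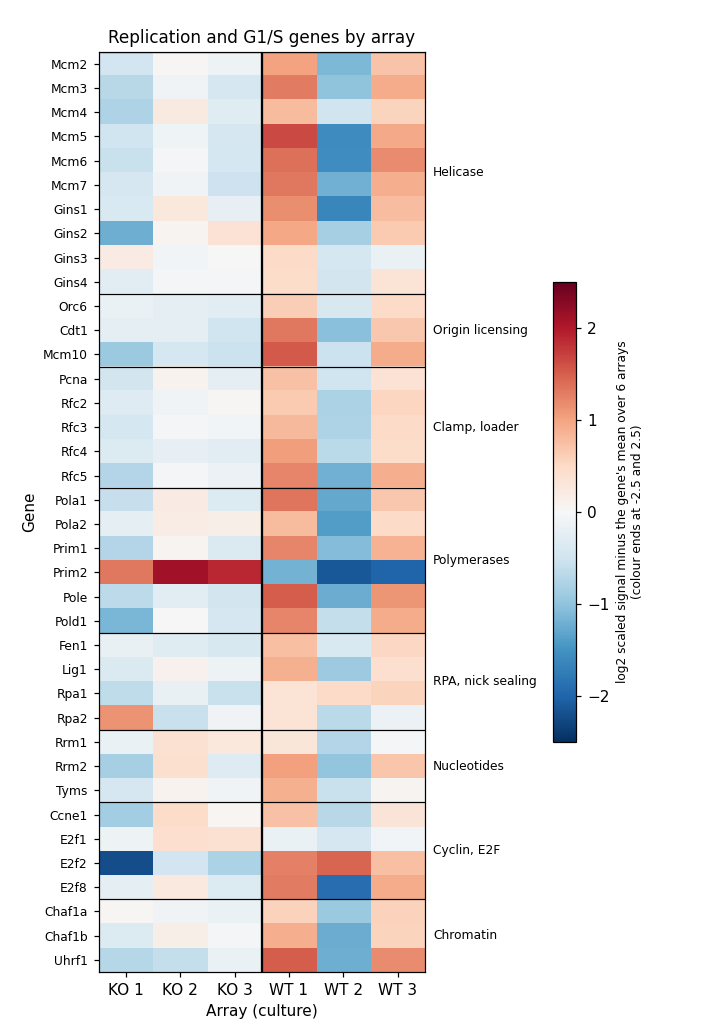
Heat map of the 38 measured replication and G1/S genes (rows, grouped by role) on the 3 knockout (KO) and 3 wild-type (WT) arrays (columns). Colour is the log2 scaled signal minus the gene's mean over the 6 arrays; most rows are red in WT 1 and WT 3, pale in the knockout arrays and blue in WT 2, whereas Prim2 is red in all knockout arrays and E2f2 blue in them.

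Over the cultures most of the 38 genes, but not all, took a shared order. Wild-type replicate 1 was the highest of the 6 arrays for 31 of the 38 genes and wild-type replicate 2 the lowest for 30. Among 12438 genes with complete values the same held for 2670 and 4508. For 24 of the 38 genes (63.2%) all knockout cultures lay between wild-type replicate 2, below them, and wild-type replicates 1 and 3, above them. This held for 7.32% of all genes tested. The median deviation of the 38 genes from their own 6-array means was -0.43, -0.03 and -0.21 in knockout replicates 1, 2 and 3, against 0.93, -0.87 and 0.57 in wild-type replicates 1, 2 and 3. Over all genes tested the same deviations ran from -0.03 to 0.16 in knockout and from -0.18 to 0.07 in wild-type cultures. The spread was wider within the wild type: the median range was 0.52 over knockout cultures and 1.80 over wild-type cultures, against 0.48 and 0.60 for all genes. The wild-type range was the wider for 34 of the 38, and for 59.1% of all genes. The exceptions among the 38 were Rpa1, Rpa2, E2f1 and E2f2. Under 4 other scalings or background settings wild-type replicate 2 kept the lowest median deviation, from -0.77 to -0.62, and was the lowest array for 22 to 28 genes.

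Without wild-type replicate 2 the comparison read differently, with 12 of the 38 genes called lower and 1 higher in the knockout. Among all genes tested 3.83% were then called lower and 4.05% higher, and 2 wild-type arrays remained. This fit is singled out on the same values, since that culture was the lowest array for 30 of the 38 genes. Leaving out a gene's lowest wild-type value lowers its difference by construction. These calls, and those without that culture given further below, are therefore no separate support. The 12 were Mcm3, Mcm5, Mcm6, Mcm7, Cdt1, Mcm10, Rfc5, Prim1, Pole, Fen1, E2f8 and Uhrf1, with differences between -1.87 (Mcm10) and -0.92 (Fen1). Prim2 was the gene called higher, and E2f2 did not pass in that fit (-2.17, adjusted p = 0.0674). The median over the 38 genes became -0.99, while that of all genes was 0.02. Leaving out wild-type replicate 1 or 3 instead gave 0 of the 38 genes called lower, and the median was then -0.08 or -0.29. Among all genes tested only 0.746% and 0.144% were called lower in those fits, so 0 of 38 lies near the background. The plot of differences sets the fits with and without wild-type replicate 2 side by side.

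**Figure D2:**
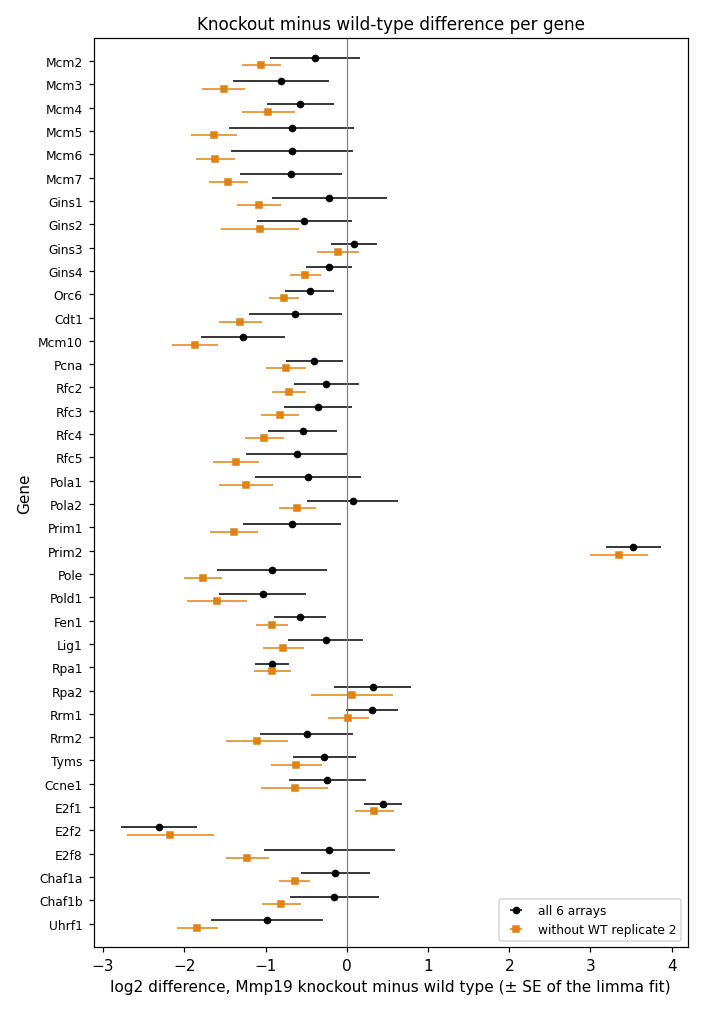
Log2 difference, Mmp19 knockout minus wild type, of each of the 38 measured genes with the standard error of the limma fit, over all 6 arrays (black circles) and without wild-type replicate 2 (orange squares). Most orange squares lie left of the black circles, down to -1.87 for Mcm10, while Prim2 stays above 3 in both fits.

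Each slide carried 1 array per genotype, with matching replicate numbers. On slide 1 the knockout array was lower for 35 of the 38 genes (median -1.50), and on slide 3 for 33 (median -0.86). On slide 2 it was lower for only 2, Rpa1 and E2f2, and higher for 36 (median 0.87). The medians of all genes tested were -0.01, 0.33 and -0.03 on slides 1, 2 and 3. The wild-type array of slide 2 was wild-type replicate 2. With slide as a block in the fit 1 gene was called higher and 0 lower, against a background of 1.17% and 0.626% of genes; the gene called was Prim2, and E2f2 had an adjusted p of 0.0859.

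**Figure D3:**
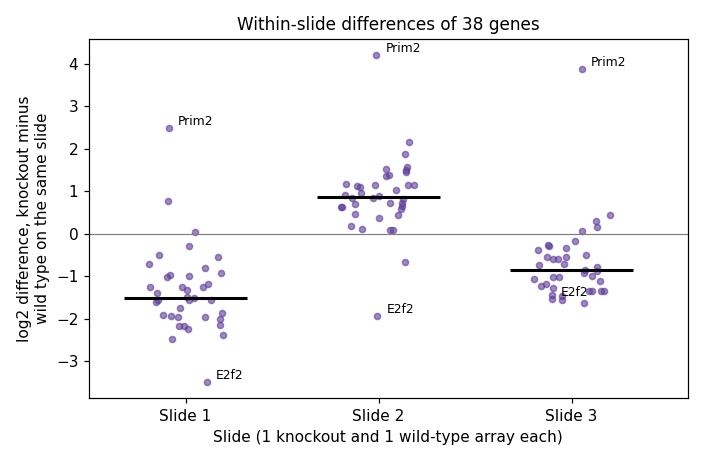
Within-slide log2 difference, knockout array minus wild-type array, for each of the 38 genes (points, spread sideways for legibility) with their median (black bar). The medians are -1.50, 0.87 and -0.86 on slides 1, 2 and 3; Prim2 is above 0 and E2f2 below 0 on every slide.

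Of the 10 helicase genes measured, 7 had every knockout culture between wild-type replicate 2 and the other wild-type cultures. Mcm6, a subunit of the Mcm2 to Mcm7 ring that unwinds DNA, had scaled signals of 3.85, 4.39 and 3.97 in knockout replicates 1, 2 and 3, against 5.78, 2.86 and 5.60 in wild-type replicates 1, 2 and 3. Wild-type replicates 1 and 3 were above every knockout culture and wild-type replicate 2 below every one, so the groups overlapped. The means were 4.07 ± 0.28 in knockout and 4.75 ± 1.63 in wild-type cells (SD, n = 3 each), and the difference of -0.68 ± 0.75 (SE) did not pass (limma adjusted p = 0.646). Mcm5, another ring subunit, had 0.95, 1.35 and 1.04 in knockout and 3.10, -0.12 and 2.39 in wild-type cultures. Its wild-type values spanned 3.22 log2 units, the widest range of any of the 38 genes within a genotype, against 0.40 in the knockout.

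Mcm3 had 1.79, 2.40 and 2.07 in knockout and 3.80, 1.49 and 3.41 in wild-type cultures, and Mcm7 had 2.73, 3.06 and 2.64 in knockout and 4.48, 1.96 and 4.07 in wild-type cultures. Both showed the same order as Mcm6. Mcm2 and Mcm4 differed by -0.39 ± 0.55 and -0.57 ± 0.41 (SE), and Mcm4 was lowest in knockout replicate 1 instead of wild-type replicate 2. The GINS complex binds the ring and activates it: Gins1 had -0.16, 0.48 and 0.02 in knockout and 1.39, -1.41 and 1.0 in wild-type cultures. Gins2 and Gins4 differed by -0.52 and -0.22. Gins3 differed by 0.09 ± 0.28, a sign that turned under 4 other settings, one of them leaving out wild-type replicate 2. None of the 10 passed, and their median difference was -0.55, or -1.07 without wild-type replicate 2, where 4 were called lower.

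Of the licensing genes, Cdt1, which brings the helicase to origins, had 3.28, 3.30 and 3.02 in knockout and 4.83, 2.48 and 4.19 in wild-type cultures. The knockout cultures were close together and lay between the wild-type ones. Mcm10, which helps start unwinding, had -0.10, 0.40 and 0.29 in knockout and 2.37, 0.30 and 1.76 in wild-type cultures. Here wild-type replicate 2 lay within the knockout values and not below them, and the difference was -1.28 ± 0.51 (SE; unadjusted p = 0.0423, limma adjusted p = 0.217). An unadjusted limma p under 0.05 held for 4 of the 38 genes and for 2715 of all 12470 genes tested. Orc6, a subunit of the origin recognition complex, differed by -0.46 ± 0.30. Orc1 and Cdc6, untested because of low signal, were not above background in knockout replicate 1 and in wild-type replicate 2 and were above it in the other 4 arrays. The brighter Cdc6 probe read -3.68, -2.57 and -3.13 in knockout and -0.49, -4.69 and -0.98 in wild-type cultures, and Orc1 read -5.12, -3.04 and -3.52 in knockout and -1.75, -5.19 and -2.02 in wild-type cultures. Cdc45, a partner of the active helicase, was below background in the same 2 arrays, with a narrower range of -4.09 to -2.54 over all 6.

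The clamp and its loader followed the same order with smaller swings. Pcna, the ring that holds polymerases on DNA, had 4.51, 5.04 and 4.74 in knockout and 5.69, 4.46 and 5.32 in wild-type cultures. Its difference was -0.40 ± 0.35 (SE; limma adjusted p = 0.555). The 4 loader subunits Rfc2, Rfc3, Rfc4 and Rfc5 differed by -0.25, -0.35, -0.54 and -0.61. All 5 genes had wild-type replicate 1 highest, wild-type replicate 2 lowest and the knockout cultures between, and Rfc5 was the one called lower without wild-type replicate 2 (-1.37, adjusted p = 0.0432).

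Prim2 was the 1 of 6 polymerase genes that passed. It encodes the subunit that completes DNA primase with the catalytic Prim1, and had 1.57, 2.35 and 2.14 in knockout and -0.92, -1.86 and -1.74 in wild-type cultures. Every knockout culture lay above every wild-type culture, with means of 2.02 ± 0.41 and -1.51 ± 0.51 (SD, n = 3 each). The difference of 3.52 ± 0.34 (SE), which is 11.5-fold, passed in the fit over all probes (limma adjusted p = 0.00532) and in the fit blocked on slide (0.0447). The difference was 2.48, 4.21 and 3.88 on slides 1, 2 and 3, and leaving out each array in turn kept it between 3.35 and 3.82 and past the threshold. Prim2 lies on chromosome 1 and was read by 1 probe.

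Its partner Prim1 kept the order of the helicase genes, with 1.55, 2.35 and 1.93 in knockout and 3.51, 1.19 and 3.15 in wild-type cultures. The groups overlapped, and the difference was -0.67 ± 0.60 (SE). Pole, the catalytic subunit of the leading-strand polymerase, had 0.54, 0.91 and 0.74 in knockout and 2.70, -0.04 and 2.29 in wild-type cultures. Pold1, catalytic subunit of the polymerase that extends the lagging strand, differed by -1.04 ± 0.53 and was lowest in knockout replicate 1. Pola1 and Pola2, subunits of the polymerase that joins primase, differed by -0.48 and 0.07, and the sign of Pola2 turned under 5 other settings, one of them leaving out wild-type replicate 2 (-0.61).

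Rpa1, the large subunit of the protein that coats single-stranded DNA, had 4.54, 4.99 and 4.63 in knockout and 5.53, 5.66 and 5.74 in wild-type cultures. The groups did not overlap and wild-type replicate 2 lay with the other wild-type cultures, unlike in the helicase genes. The difference of -0.92 ± 0.21 (SE) missed the threshold (limma adjusted p = 0.0604). It passed in 5 of the other settings, among them the scaling to probes above background on all arrays (-1.04, adjusted p = 0.0345). Rpa2, its smaller partner, differed by 0.32 ± 0.48 and was highest in knockout replicate 1. Fen1, the nuclease that trims Okazaki fragments, differed by -0.58 ± 0.32, and Lig1, the ligase that seals them, by -0.26 ± 0.46.

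Of the nucleotide synthesis genes, Rrm2, the regulated subunit of ribonucleotide reductase, had 3.61, 4.84 and 4.12 in knockout and 5.47, 3.46 and 5.13 in wild-type cultures. Wild-type replicate 2 was again lowest. Rrm1, the large subunit, differed by 0.31 ± 0.32 and was highest in knockout replicate 2. Tyms, which makes thymidylate, differed by -0.28 ± 0.38.

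The cyclin and E2F genes did not move as one group. E2f2 had -2.35, -0.63 and -0.93 in knockout and 1.12, 1.30 and 0.61 in wild-type cultures. Every knockout culture was below every wild-type culture, and wild-type replicate 2 was the highest of all. The difference was -2.32 ± 0.47 (SE; limma adjusted p = 0.0436), which is 0.201 of the wild-type level, and -3.48, -1.93 and -1.54 on slides 1, 2 and 3. Leaving out any single array kept the difference between -2.65 and -1.79, but it passed only without knockout replicate 1 (limma adjusted p = 0.0479); the other 5 fits gave 0.0577 to 0.138. The call was also lost with slide as a block, without a filter on dim probes (0.150) and with quantile scaling (0.0509).

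E2f1, an activating factor as well, had 2.35, 2.89 and 2.85 in knockout and 2.32, 2.05 and 2.41 in wild-type cultures. The groups overlapped, and the difference was 0.44 ± 0.24 (SE; limma adjusted p = 0.333). E2f8, a repressing E2F that is itself an E2F target, had -0.91, -0.45 and -1.04 in knockout and 0.61, -2.60 and 0.24 in wild-type cultures, again with the knockout between. Ccne1, cyclin E1, differed by -0.24 ± 0.48 on its brighter probe, and averaging its tested probes turned the sign (0.07). Ccne2 was not above background on any array. Of the 38 genes 1 had groups without overlap and a higher knockout, Prim2, and 2 a lower one, Rpa1 and E2f2; among all genes with complete values 21.2% and 9.82% did so.

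**Figure D4:**
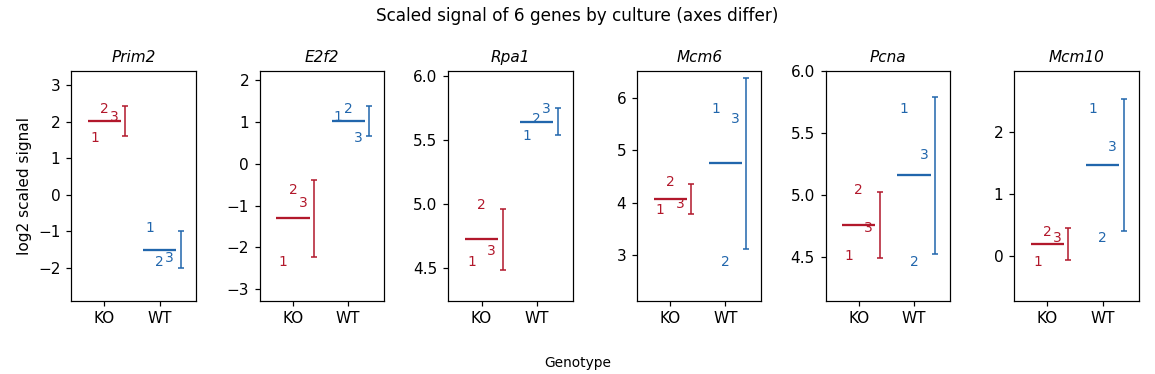
Log2 scaled signal of 6 genes in knockout (KO, red) and wild-type (WT, blue) cultures; digits are replicate numbers, horizontal bars are means and vertical bars ± SD (n = 3), and each panel has its own axis. Prim2, E2f2 and Rpa1 separate the genotypes, whereas in Mcm6 and Pcna wild-type replicate 2 lies below the knockout cultures and in Mcm10 among them.

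Chromatin genes that act behind the fork closed the list. Uhrf1, which helps copy DNA methylation to the new strand, had 2.12, 2.23 and 2.67 in knockout and 4.35, 1.60 and 4.02 in wild-type cultures, a difference of -0.98 ± 0.69 (SE; limma adjusted p = 0.459). Without wild-type replicate 2 it was -1.84 (adjusted p = 0.0164). Chaf1a and Chaf1b, which load histones onto new DNA, differed by -0.14 and -0.15. All 3 genes had wild-type replicate 2 lowest, and Chaf1a was highest in wild-type replicate 3.

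The growth state of each culture was then read from related genes outside the list. Of 21 measured mitosis genes 0 passed in the limma fit. An unadjusted p under 0.05 held for 0 of the 21, against 2715 of all 12470 genes tested. Wild-type replicate 2 was the lowest array for all 21 mitosis genes and wild-type replicate 1 the highest for 20. Among 12438 genes with complete values the same held for 4508 and 2670. Their median deviation was -0.63, 0.34 and -0.04 in knockout replicates 1, 2 and 3, against 1.20, -1.51 and 0.70 in wild-type replicates 1, 2 and 3. This is the order of the replication genes with a wider swing. Mki67, the usual marker of cycling cells, picked here after its values were seen, had 2.35, 2.87 and 2.66 in knockout and 3.79, 0.45 and 3.44 in wild-type cultures. The mitosis genes with the smallest p were Ndc80, a kinetochore subunit that differed by 0.98 ± 0.57, and the kinetochore motor Cenpe, which differed by -0.91 ± 0.58 (SE; limma adjusted p = 0.372 and 0.415). Without wild-type replicate 2 Cenpe was the 1 mitosis gene called lower (-1.58, adjusted p = 0.0421) and the median over the 21 was -1.05, against -0.14 with all arrays; without wild-type replicate 1 Cenpe differed by -0.46.

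**Figure D5:**
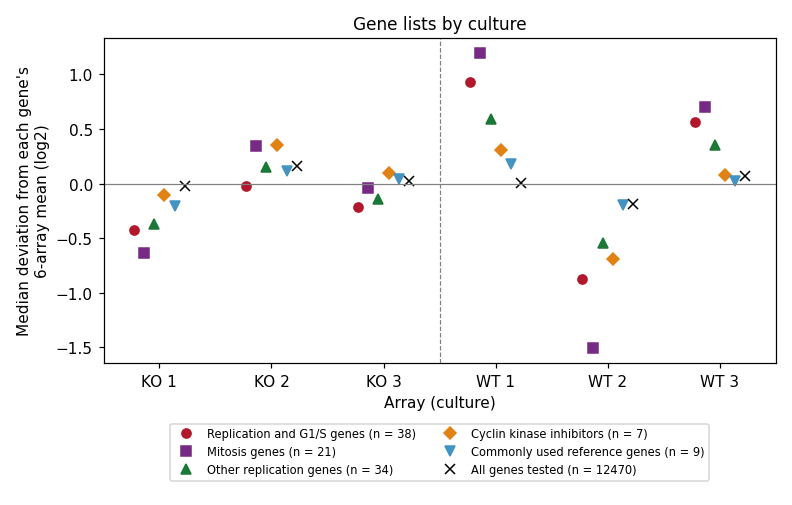
Median deviation of 6 gene lists from each gene's 6-array mean (log2) on each array, knockout (KO) left of the dashed line and wild type (WT) right of it. The replication and mitosis genes lie at 0.93 and 1.20 in WT 1 and at -0.87 and -1.51 in WT 2, while all genes tested stay between -0.18 and 0.16.

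In other genes of DNA replication the medians followed this order, but 9 of 34 genes (26.5%) had every knockout culture between wild-type replicate 2 and the other wild-type cultures; wild-type replicate 2 was lowest for 15 and a knockout array for 15. Of 34 measured 1 rose and 0 fell, with a median difference of -0.31 and medians of -0.37, 0.15 and -0.14 in knockout replicates 1, 2 and 3, against 0.59, -0.54 and 0.36 in wild-type replicates 1, 2 and 3. The gene that rose was Rnaseh2a, a subunit of the enzyme that removes RNA from DNA, by 1.26 ± 0.23 on its brightest probe (limma adjusted p = 0.0336; 0.0780 with slide as a block), but its probes disagreed, the mean over them differed by -0.16, and the call was lost in 5 of the 6 fits without 1 array. Without wild-type replicate 2, 6 of the 34 were called lower and 1 higher. Of 9 S-phase chromatin genes 0 passed; Cdca7 and the histone chaperone Nasp differed by -1.45 ± 0.64 and -0.61 ± 0.35. Without wild-type replicate 2 they differed by -2.22 and -0.96, and 2 of the 9 were called lower, Cdca7 (limma adjusted p = 0.0154) and the histone chaperone Asf1b (adjusted p = 0.0329). Of 10 nucleotide supply genes 0 passed; Shmt1 and Dtymk differed by -0.48 and -0.55.

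Of 25 measured G1/S regulators 0 passed and 13 differences were negative. Without wild-type replicate 2, 3 were called lower: E2f7, a repressing E2F (-2.20), Fbxo5, an inhibitor of the anaphase-promoting complex (-1.40), and the transcription factor Mybl2 (-1.24). They and Asf1b are named after their values were seen. With all arrays the closest to the threshold were Lin52, a subunit of the complex that silences cell cycle genes in rest (0.89 ± 0.20, limma adjusted p = 0.0601), and the E2F partner Tfdp2 (1.0 ± 0.25, adjusted p = 0.0772). Of 7 cyclin kinase inhibitors 0 passed, 6 differences were positive and the median was 0.16. That tally rested on wild-type replicate 2: without it 3 of the 7 were negative and the median was 0.0056. The nearest were Cdkn2a, by 0.56 ± 0.20 on its brightest probe, and Cdkn1c, by -0.58 ± 0.21 (SE). Their median deviation in wild-type replicate 2 was -0.69, the lowest of the 6 arrays, as it was for the replication genes. Of 9 growth arrest genes 0 passed, and 5 differences were positive and 4 negative. Tob1 and Btg2, with the smallest p, differed by 0.84 ± 0.27 and 0.83 ± 0.54 (SE). The median deviation of the 9 was -0.30, 0.18 and 0.16 in knockout replicates 1, 2 and 3. It was 0.44, -0.40 and 0.20 in wild-type replicates 1, 2 and 3, so again lowest in wild-type replicate 2. Of 9 reference genes 0 passed, with deviations from -0.21 to 0.12 in knockout and from -0.19 to 0.17 in wild-type cultures.

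Fibroblast markers did not place wild-type replicate 2 on one side. Of the 9, it was the highest wild-type culture for 5 (Col1a2, Col3a1, Pdgfrb, Thy1 and Vim) and the lowest for 3 (Pdgfra, Dcn and Lum), and the summed level was highest in it among the wild-type cultures (1135). It also had the highest wild-type sum of mesothelial markers (12.5) and of smooth muscle and pericyte markers (487). For macrophage, endothelial, epithelial and lymphocyte markers another wild-type culture had the highest sum. Col3a1, a fibrillar collagen, had 6.41, 6.79 and 6.72 in knockout and 1.48, 4.74 and 3.74 in wild-type cultures. Dcn, a small proteoglycan of collagen fibrils, had 5.62, 5.51 and 5.72 in knockout and 8.50, 2.74 and 7.85 in wild-type cultures, so it followed the order of the replication genes. Lum, a related proteoglycan, had 1.61, 2.51 and 2.16 in knockout and -0.43, -4.65 and -1.08 in wild-type cultures, the second of these not above background. These 3 were picked after their values were seen. Whether the state of that culture or its cell makeup bears on the replication genes was not tested.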

How the data were processed

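Per the labels' protocols, 0.5 µg of total RNA from each of 6 fibroblast cultures was Cy3-labelled. Sample titles gave the genotype and the replicate number. The deposited scanner tables hold spot intensity values with background subtracted by Agilent Feature Extraction 10.7.3.1 per the file headers (9.1 per the submitters' processing notes). The authors also deposited log2 values for 35844 probes, whose normalization is unknown here (column medians 5.51 to 5.76, so genes were not centred); the lowest correlation of a column with its own array was 0.996, and they served as an alternative.

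Control spots and outlier flags were left out and spots of a probe averaged. Each array's 75th percentile of log2 processed intensity was subtracted. Probes above background on all arrays of a genotype were tested (24214 of 55681). The test was limma's moderated fit (version 3.58.1, lmFit followed by eBayes, run under R 4.3.3), two-sided over all 6 arrays with no covariate, and p-values were adjusted after Benjamini-Hochberg. The script was tested on simulated data. Probes were named by accession through RefSeq tables of GRCm38.p6 (47.4% matched), and a gene is its brightest tested probe, giving 12470 genes. A fold written "at least" divides the bright group's mean by the dim group's floor: on each array the lowest signal of any probe above background, or this probe's signal where that is larger.

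Genes named are all members, Mmp19, sex-linked genes, and from each other list up to 5 past the threshold or the 2 with the smallest p; exceptions are stated. Members and lists were chosen with earlier results of these data known. Deviations from group means correlated at 0.096, -0.021 and 0.210 within replicate numbers, so arrays were not treated as pairs; slide equals replicate number and is given as a block and within slides. Alternatives were other scalings, normexp with offset 50 on the median spot signal, other filters, priors, array weights, probe averaging and leaving out each array.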

Additional observations from a re-analysis of the deposited data

How the results depend on the processing

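Prim2 passed under all 16 other settings, with differences from 2.61 (normexp) to 3.82. The count of genes called lower was 2 with scaling to probes above background on all arrays, with the authors' log2 values and with a trended robust prior, each time E2f2 and Rpa1; with quantile scaling Rpa1 passed and E2f2 did not; the count was 0 without a filter on dim probes and 0 with the replicate block, which is the slide block and changed no other call among the 38. It was 13 of the 38 with array weights. In that fit 5055 of the 24214 probes tested were called in either direction, against 1124 in the main fit. The share of all genes called lower in it is not given here, so the 13 are not set against a background. The weights were 4.86 for knockout replicate 3 and 2.26 for wild-type replicate 3, so these arrays dominated that fit. They were 0.607 and 0.675 for knockout replicates 1 and 2, and 0.762 and 0.292 for wild-type replicates 1 and 2. The count of genes called lower was 0 to 12 when 1 array was left out. The probes called numbered 1124, against 633 with normexp, 385 with the replicate block, 650 when above background on all arrays, 113 without a filter, 5055 with array weights and 107 to 1716 when 1 array was left out. All-gene medians were 0.08, and -0.03 or -0.05 with scaling to detected probes or the authors' values.

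Small differences changed sign: Gins3 was -0.027, -0.050 and -0.026 with detected-probe scaling, quantile scaling and the authors' values, and Pola2 was -0.044, -0.047, -0.068 and -0.27 with detected-probe scaling, the authors' values, normexp and array weights. Ccne1 was 0.072 and Rnaseh2a -0.16 over all their probes. Leaving out 1 array, the range crossed zero for Mcm2 (-1.05 to 0.015), Gins1 (-1.08 to 0.32), Gins3 (-0.11 to 0.35), Rfc2 (-0.71 to 0.0099), Pola1 (-1.24 to 0.071), Pola2 (-0.61 to 0.49), Lig1 (-0.78 to 0.12), Rpa2 (-0.16 to 0.68), Tyms (-0.62 to 0.10), Ccne1 (-0.64 to 0.14), E2f8 (-1.22 to 0.38), Chaf1a (-0.64 to 0.11) and Chaf1b (-0.81 to 0.26). The cause was not tested. The Mmp19 call was lost with normexp (adjusted p = 0.0759), without a filter (0.0551) and without knockout or wild-type replicate 3 (0.0900 and 0.0774). Low signal limits Orc1, Cdc6, Cdc45 and Ccne2.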
